A study of Homo sapiens with 9 samples.

Results

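The CEBP family was examined here in cranial neural crest cells (CNCCs) before and after loss of the transcription factor SOX9. The family was taken as 5 genes, CEBPA, CEBPB, CEBPD, CEBPE and CEBPG, of the 18970 gene symbols in the count tables. CEBPD was picked by its rise in newly made RNA in these same libraries, so that its values are given as a description, with no test. The other 4 genes came in as its paralogues. CEBPE had no read in any library, and 4 of the 5 genes passed the filter on low counts.

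The cells came from H9, a human embryonic stem cell line, and were CNCCs at passage 4 in a medium with BMP2 and the GSK3 inhibitor CHIR-99021. SOX9 carried an FKBP12-F36V degron tag on both alleles in all samples. dTAGV-1, a small molecule that brings the tagged protein to a ubiquitin ligase, was labelled as given at 500 nM for 0h, 3h or 24h, and the labels' protocol names DMSO as the vehicle control. The labels put SOX9 at 100% at 0h and at 0% at 3h and 24h. Each sample was fed 100 uM of 4-thiouridine (4sU), a modified form of uridine, over 2 h, and labelling in the 3h and 24h groups began 1 h and 22 h into depletion. Each group held 3 samples, 1 from each of the cultures S9CC13_R6, S9CC47_R5 and S9CC47_R6, named for the tagged clone (S9CC13 or S9CC47) and the differentiation batch (R5 or R6). RNA of cells with untagged SOX9 was not analysed here, and the cells are an in vitro model from 1 stem cell line.

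C/EBP proteins are basic leucine zipper (bZIP) transcription factors that bind DNA as dimers with each other or with related bZIP proteins. CEBPA, CEBPB and CEBPD encode activators known from liver, fat and blood cells, and CEBPB and CEBPD are known as early responders to cytokines of the IL-6 family, to glucocorticoids and to the start of fat cell formation. CEBPE encodes a factor of granulocyte development. CEBPG encodes a short member that lacks a strong activation domain and acts largely as a dimer partner, also with ATF4.

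In SLAM-seq, RNA made during labelling carries 4sU, which is alkylated and read as a T>C conversion. The T>C reads of a gene therefore stand for newly made RNA and the total reads for all its RNA. Unconverted reads (total minus T>C) hold older RNA and also new RNA that was read without a conversion, and these were not separated. No library without 4sU was used here. Libraries were read from the 3′ end of transcripts, so that conversions were read mainly near that end, toward the 3′ untranslated region (UTR). The AU-rich pentamer ATTTA is known from the 3′ UTRs of many short-lived mRNAs. It occurred once in the 3′ UTR of CEBPA, once in that of CEBPB and 9 times in that of CEBPG, and in 67.6% of all protein-coding 3′ UTRs (GENCODE 44, hg38, sense strand only). No match was found in the 3′ UTRs of CEBPD and CEBPE. The UTRs differ in length, from 181 bases in CEBPE and 398 in CEBPD to 597 in CEBPB, 1404 in CEBPA and 2994 in CEBPG. To show the sites that the members share, the 30 bases around the ATTTA nearest to the transcript end are given for each gene that has one, with ATTTA in capitals and the strand of the gene. The CEBPA site lies at chr19:33301052-33301081 (minus strand), the CEBPB site at chr20:50192285-50192314 (plus strand) and the CEBPG site at chr19:33382323-33382352 (plus strand).
CEBPA 3′ UTR site: ggcaactctagtATTTAggataaccttgtg
CEBPB 3′ UTR site: gcccgtggtgttATTTAaagaagaaacgtc
CEBPG 3′ UTR site: tgaaattctcaaATTTAcataaaaagtaga

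Promoter letters were searched on both strands in RefSeq windows from 250 bases before to 50 after a start site (GRCh38.p14), for CEBPA, CEBPB, CEBPE and CEBPG. CEBPD was not searched. TATAAA, the core of a TATA box, was found at 30 bases before the start of CEBPA and at 29 before that of CEBPB, and in 11.5% of all 35116 promoter windows. CEBPB also held TGACG, the core of a cAMP response element, as did 24.6% of windows. No window of CEBPG or CEBPE held TATAAA. Of these 4 genes, CEBPE had a STAT-type match (TTCNNNGAA, in 7.66% of windows), and none held the C/EBP-type letters TTGCNNAA, the SOX-type letters ACAATG or the E-box CACGTG, which 10.5%, 10.8% and 7.26% of windows did. GGGCGG, the GC box, was present in CEBPA, CEBPB and CEBPG and in 45% of windows. The windows below show the TATA letters of CEBPA and CEBPB and the cAMP element letters of CEBPB, in capitals, at chr19:33302547-33302576 (minus strand), chr20:50190789-50190818 and chr20:50190761-50190790 (plus strand). A match is a description of the letters and not a measured binding site.
CEBPA TATA window: cggcctgccgggTATAAAagctgggccggc
CEBPB TATA window: acgggccgccctTATAAAtaaccgggctca
CEBPB cAMP element window: gaggggccggcgTGACGcagcggttgctac

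Total reads ranged from 16955633 to 28782678 per library and T>C reads from 3130673 to 5475800, and the T>C reads of a library were 15.92% to 21.3% of its total. The lowest of these shares was that of S9CC13_R6 at 3h. Of 10 neural crest markers, 9 were detected in all libraries, with median levels from 11.9 CPM (reads scaled to library size) for SNAI2 and 40.2 for ALX1 to 1038 for NR2F1 and 1415 for SOX9. SOX10 had at most 3 reads in a library. POU5F1 and NANOG, which mark pluripotent cells, had at most 1 and 4 reads, although LIN28A had a median of 290 CPM and DPPA4 of 36.7 CPM. Of the myeloid markers, PTPRC, SPI1 and MPO had at most 4 reads in any library, CD14 had 6 to 17 and CSF1R 0 to 15. The fat cell markers PLIN1, FABP4 and CIDEC had at most 4 reads, and ADIPOQ had 0. The summed level of 5 myeloid markers was 0.503 to 1.30 CPM and that of 4 fat cell markers 0 to 0.262 CPM.

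The order of the members by level differed between the times. Since a 3′ end library yields reads from one end of a transcript, total CPM was compared between genes without division by length. CEBPG had the highest median (24.3 CPM, range 20.9 to 35.7), followed by CEBPD (13.5 CPM, 5.04 to 35.9), CEBPB (7.97 CPM, 4.90 to 10.1) and CEBPA (0.961 CPM, 0.609 to 1.29). At 0h, CEBPD (7.82, 7.67 and 5.04 CPM in S9CC13_R6, S9CC47_R5 and S9CC47_R6) overlapped with CEBPB (6.32, 8.43 and 4.90 CPM). At 24h, CEBPD (35.9, 27.0 and 28.5 CPM) overlapped instead with CEBPG (27.7, 24.3 and 35.7 CPM). CEBPA was the lowest detected member in 9 of 9 libraries. For CEBPE, 0 reads in a library allow a level of up to 0.104 to 0.177 CPM at these depths (3 counts, counting error only). In bulk samples, a change in the number of cells that express a gene and a change in its RNA per cell cannot be told apart.

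CEBPD, known as an early induced member, had more T>C reads at 3h than at 0h and more again at 24h in each culture. In the order S9CC13_R6, S9CC47_R5 and S9CC47_R6, the 0h libraries had 81.3, 85.9 and 67.0 normalized T>C reads. The 3h libraries had 169, 165 and 157.5 and the 24h libraries 439.9, 323 and 333. The 3 groups did not overlap, and the highest library was S9CC13_R6 at 24h. These are the values by which the gene was chosen, in comparisons where 1.79% of all genes were called at 3h and 4.98% at 24h. A call is another measure than non-overlap, and the share of all genes whose groups did not overlap was not counted. Before normalization, the 0h libraries held 71 to 88 T>C counts, the 3h libraries 128 to 191 and the 24h libraries 311 to 464. The fitted log2 fold change was 1.06 (SE 0.203) at 3h and 2.28 (SE 0.204) at 24h, and 24h lay 1.22 (SE 0.209) above 3h. Within cultures, the log2 ratio at 24h was 2.43 in S9CC13_R6, 1.91 in S9CC47_R5 and 2.31 in S9CC47_R6. Among the 8676 genes whose normalized T>C reads averaged 50 or more, CEBPD had the second highest value at 24h, between LHX9 (3.32, SE 0.219) and RGS4 (2.16, SE 0.472). At 3h it was in place 11 of the same genes.

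Total and unconverted reads of CEBPD followed, without a test for the same reason. Normalized total reads in S9CC13_R6 were 169, 298 and 757 at 0h, 3h and 24h. They were 167, 269 and 582 in S9CC47_R5 and 112, 284 and 603 in S9CC47_R6. Again the groups did not overlap, and the share of all genes without overlap was not counted. By the test, 1.89% of all genes were called at 3h and 15.0% at 24h. The log2 fold change of total reads was 0.92 (SE 0.176) at 3h and 2.16 (SE 0.179) at 24h. Unconverted reads went from 88.0, 77.6 and 44.2 at 0h to 144, 108 and 125 at 3h and to 311, 242 and 244 at 24h, a log2 fold change of 0.83 (SE 0.244) and 2.01 (SE 0.249). The difference between 24h and 3h in total reads was 1.24 (SE 0.185) on the log2 scale and 0.73 without culture S9CC13_R6.

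**Figure D1:**
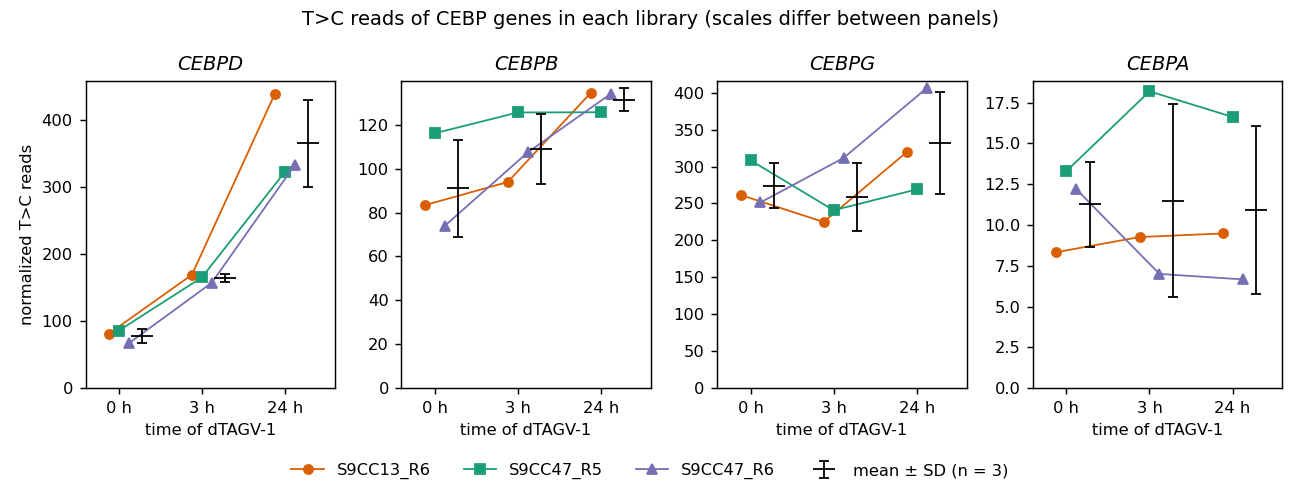
Normalized T>C reads (vertical axis, counts divided by size factors, linear scale from 0 that differs between panels) of the 4 detected CEBP genes at 0, 3 and 24 h of dTAGV-1, 1 point per library with the culture joined by lines and black marks for the mean ± SD (n = 3). CEBPD goes from 67.0 to 85.9 at 0 h to 323 to 439.9 at 24 h, while the 0 h and 24 h points of CEBPG and CEBPA overlap.

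None of the paralogues was called at either time. Of the 3 paralogues with enough T>C reads, DESeq2 called 0 at 3h, where it called 1.79% of all genes tested, 0 at 24h (4.98% of genes) and 0 for 24h against 3h (1.14% of genes). For total reads, 0 of 3 were called at 3h (1.89% of genes), 0 at 24h (15.0%) and 0 for 24h against 3h (5.39%). For unconverted reads, 2 paralogues were tested, and 0 were called at 3h (1.10% of genes) and at 24h (12.1%). CEBPB was the 1 paralogue with an unadjusted p under 0.05, at 24h in T>C and in total reads. edgeR's quasi-likelihood test also called 0 paralogues in each comparison.

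CEBPB, which encodes another early induced activator, lay higher at 24h without passing the test. Over 0h, 3h and 24h, normalized T>C reads in S9CC13_R6 were 83.4, 93.9 and 135. Those of S9CC47_R5 were 116, 126 and 126, and those of S9CC47_R6 were 73.9, 107 and 134. All 24h libraries lay above all 0h libraries, by 1.08- to 1.81-fold within cultures. The share of all genes that separate in this way was not counted, so that the separation is a description. By the test, 4.98% of all genes were called and CEBPB was not. S9CC47_R5 hardly differed between 3h and 24h. The log2 fold change by DESeq2 at 3h was 0.31 (SE 0.230) with adjusted p = 0.929, and it was 0.023 without culture S9CC47_R6. At 24h it was 0.49 (SE 0.236, 95% interval 0.03 to 0.96) with adjusted p = 0.316. The adjusted p at 24h was 0.149 by edgeR's quasi-likelihood test. Normalized total reads were 136, 184 and 109 at 0h, 134, 177 and 167 at 3h and 192, 197 and 214 at 24h. Their log2 fold change at 24h was 0.42 (SE 0.200, adjusted p = 0.170 by DESeq2), and it was -0.011 without culture S9CC13_R6. In T>C reads the value without that culture was 0.20. CEBPB-AS1 overlaps CEBPB on the opposite strand, and whether the counting used strand is not given in the sources used here.

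CEBPG, the dimer partner, was the most abundant member at 0h, and its groups overlapped. Normalized T>C reads were 262, 308 and 251 at 0h, 225, 241 and 312 at 3h and 319.5, 269 and 406 at 24h. S9CC47_R6 went up at each step, while S9CC47_R5 was highest at 0h. At 3h the log2 fold change by DESeq2 was -0.0075 (SE 0.153, 95% interval -0.31 to 0.29) with adjusted p = 0.998. The value at 24h was 0.11 (SE 0.158, interval -0.20 to 0.42) with adjusted p = 0.849. It was 0.26 with the culture as a block, 0.27 without the surrogate variable and 0.28 without covariates, and was not called in these fits. In total reads the main fit gave 0.02 (SE 0.125) at 3h and 0.06 (SE 0.131) at 24h.

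CEBPA, the activator best known from liver, fat and myeloid cells, was near the detection limit. Its T>C counts before normalization were 8, 11 and 16 at 0h, 7, 21 and 6 at 3h and 10, 16 and 9 at 24h. The groups overlapped, and after normalization S9CC47_R6 was lower at both later times while the other cultures were higher. The log2 fold change of T>C reads at 24h was -0.02 with a standard error of 0.680 and a 95% interval from -1.35 to 1.31, so that a change of about the size seen in CEBPB was not detectable at this depth. CEBPA also has antisense RNAs annotated on the opposite strand.

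**Figure D2:**
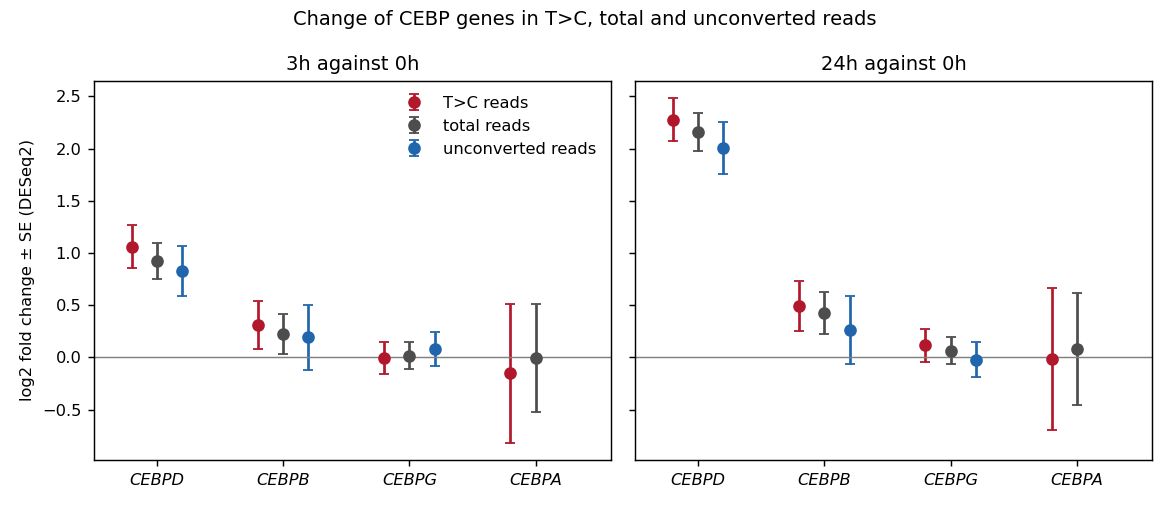
Log2 fold change against 0 h (vertical axis, DESeq2, bars ± SE) of the 4 detected CEBP genes in T>C, total and unconverted reads at 3 h (left) and 24 h (right); CEBPA had too few unconverted reads. The 3 values of CEBPD lie between 0.83 and 1.06 at 3 h and between 2.01 and 2.28 at 24 h, above those of the paralogues.

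CEBPD took a growing part of the reads that the family yielded. Of the T>C reads of all members, before normalization, the part held by CEBPD was 17.2% ± 1.29 in the 0h libraries (SD, n = 3), 30.4% ± 3.53 in those of 3h and 43.5% ± 5.42 in those of 24h. By culture, its part at 24h was 48.7% in S9CC13_R6, 43.99% in S9CC47_R5 and 37.9% in S9CC47_R6. CEBPG held 60.4% ± 1.64 at 0h, 47.5% ± 5.19 at 3h and 39.4% ± 5.88 at 24h. CEBPB went from 19.9% ± 2.04 and 20.0% ± 2.43 to 15.8% ± 1.19, and CEBPA from 2.49% ± 0.549 to 1.36% ± 0.798. CEBPG was the first member by T>C reads in all libraries at 0h and 3h. At 24h CEBPD was first in S9CC13_R6 and S9CC47_R5, and CEBPG in S9CC47_R6. These parts add up to the whole, so that the rise by which CEBPD was chosen lowers the others.

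**Figure D3:**
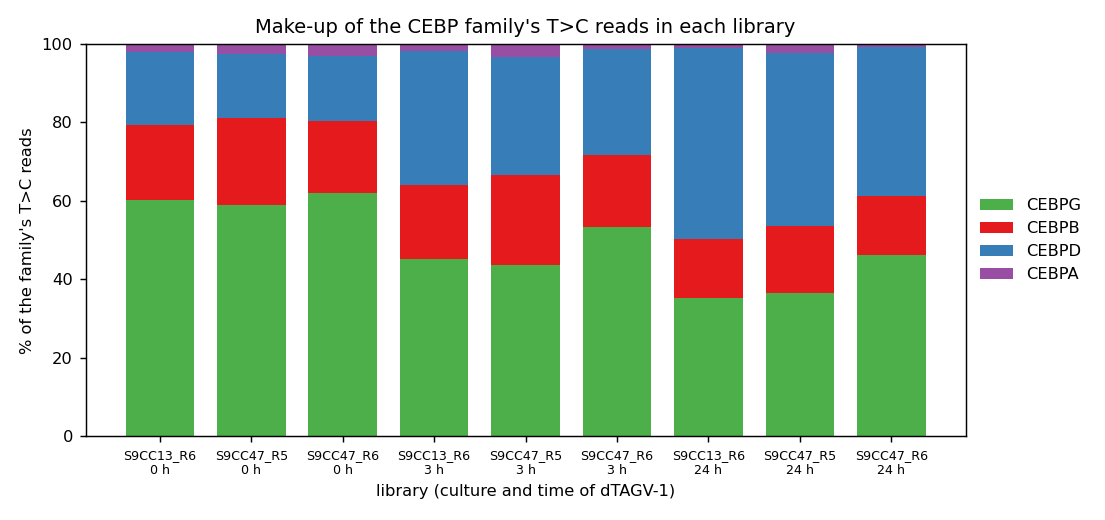
Part of the CEBP family's T>C reads (vertical axis, percent of the raw counts of all members) held by each gene in the 9 libraries, ordered by time of dTAGV-1. The CEBPD part is 16.4% to 18.7% in the 0 h libraries and 37.9% to 48.7% in the 24 h libraries.

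The T>C share of a gene is the percent of its reads that carry a conversion. It describes how much of its RNA was labelled in 2 h, as far as labelled RNA gave a conversion in the read. All detected members had a share above the median gene in each library, which was 22.55% to 30%. The CEBPB share at 0h, 3h and 24h was 59.3%, 58.7% and 71.4% in S9CC13_R6, 67.1%, 68.1% and 68.8% in S9CC47_R5 and 68.8%, 64.8% and 69.6% in S9CC47_R6. It ranked between the 94.7th and the 97.8th percentile of all genes of the same library. CEBPD had 46.7%, 54.6% and 60.7% at 0h, 47.6%, 58.95% and 56.0% at 3h and 59.2%, 59.7% and 61.4% at 24h. CEBPG had 51.2%, 52.7% and 51.2% at 0h, 39.0%, 49.8% and 50.9% at 3h and 55.7%, 55.2% and 59.8% at 24h. The CEBPB share lay above the shares of CEBPD and CEBPG in 9 of 9 libraries, by a median of 9.12 and 14.4 percentage points. That of CEBPD lay above CEBPG in 8 of 9. The CEBPA share ranged from 36.8% to 78.6%, with a median width of its Wilson 95% interval of 39.8 percentage points, against 15.1 for CEBPB, 11.8 for CEBPD and 8.52 for CEBPG. The reads carry no molecular identifiers, and the intervals cover counting error only. CEBPA, CEBPB and CEBPG each had their lowest share in S9CC13_R6 at 3h, which was also the library with the lowest share of the median gene.

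**Figure D4:**
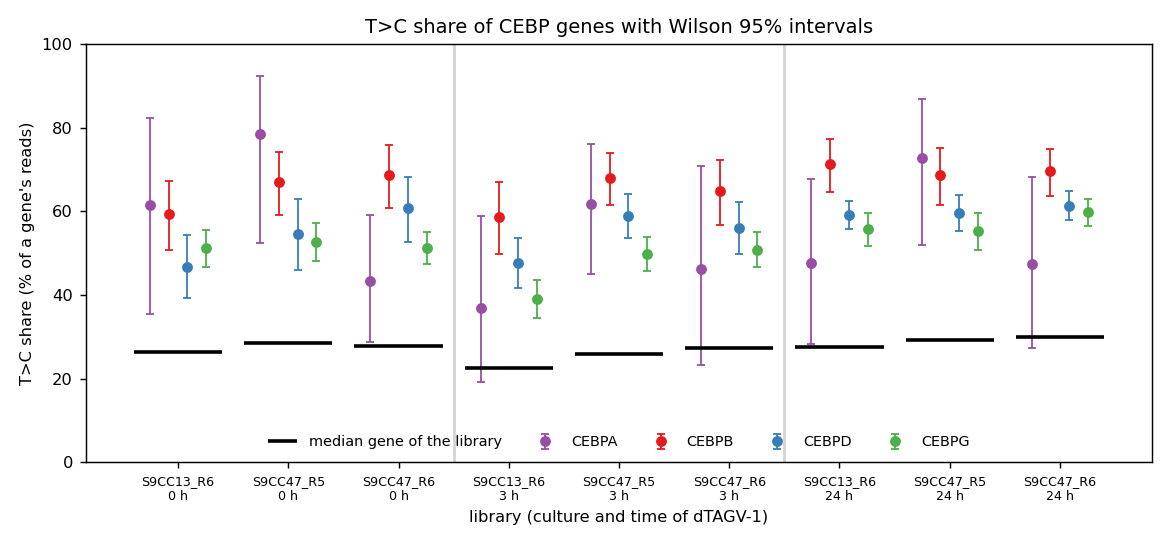
T>C share (vertical axis, percent of a gene's reads, bars for the Wilson 95% interval) of the 4 detected CEBP genes in each library (horizontal axis, culture and time of dTAGV-1), with a black line for the median gene of that library. CEBPB lies between 58.7% and 71.4% and the median gene between 22.55% and 30%.

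A read with more T bases has more places at which a conversion can be seen. The last 250 bases of the transcript held 39.2% T in CEBPB, 34.0% in CEBPD, 36.8% in CEBPG and 24.4% in CEBPA. Across 12034 genes, Spearman's rho between this T content and the T>C share over all libraries was 0.373, with genes not independent of each other. Among genes with a T content within 2 percentage points of their own, the members' shares stood at the 96.6th percentile for CEBPB (2077 genes), the 96th for CEBPA (1676 genes), the 92.1st for CEBPD (2849 genes) and the 84.5th for CEBPG (2745 genes). The region in which reads were counted is not given in the sources used here, so that the last 250 bases are an approximation.

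The T>C share of a paralogue was not shown to change with depletion. The interaction of read kind and time, which compares the T>C to unconverted ratio of a gene with that of the typical gene of the same library, called 0 of 3 paralogues at 3h (0.324% of all genes were called by DESeq2) and 0 of 3 at 24h (0.0166%). None had an unadjusted p under 0.05, and edgeR called 0 as well. On the log2 scale the difference at 24h was 0.21 (SE 0.344, 95% interval -0.47 to 0.88) for CEBPB, 0.20 (SE 0.193, interval -0.18 to 0.58) for CEBPG and -0.33 (SE 0.995) for CEBPA, each with adjusted p = 0.9997 by DESeq2. For CEBPD it was 0.20 (SE 0.271) at 3h and 0.26 (SE 0.260) at 24h, where the T>C reads themselves lay 2.28 higher.

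Genes around the family were followed as 6 lists, which were written with earlier results of these data known. The lists held bZIP partners and relatives, genes of C/EBP protein turnover, and genes of gp130 and STAT3 signalling. The others held genes of fat cell formation, genes that respond to glucocorticoids, and acute-phase and inflammatory genes. Of 10 tested bZIP partners and relatives, 0 rose and 0 fell in T>C reads at 3h (1.01% of all genes were called higher and 0.789% lower). At 24h 0 rose and 1 fell (2.38% and 2.59% of all genes). The one that fell was ATF4, a stress-response activator and CEBPG partner (-0.33, SE 0.114, adjusted p = 0.0798 by DESeq2), which was 0.039 without culture S9CC13_R6 and -0.31, also not called, without S9CC47_R6. Its call was also lost under both other filters on low counts, with size factors from total reads and without the S9CC13_R6 library of 3h, with values of -0.34 to -0.27. In total reads at 24h ATF4 fell as well (-0.33, SE 0.0982, adjusted p = 0.0107 by DESeq2). It was the 1 of 10 list genes called there, where 15.0% of all genes were called. DDIT3, known to dimerize with C/EBP proteins, had 0.60 (SE 0.230, adjusted p = 0.152) and NFIL3 0.33 (SE 0.209, adjusted p = 0.543) at 24h. The list's median log2 fold change at 24h was 0.29 and that of all genes 0.00147. Of 6 genes that act in C/EBP protein turnover, 1 fell at 3h (0.789% of all genes) and none was called at 24h (4.98%). The gene called was TRIB2, an adaptor that brings C/EBPα to the ubiquitin ligase COP1 (-0.40, SE 0.0903, adjusted p = 0.000971 by DESeq2). Its adjusted p by DESeq2 was 0.124 when the culture was a block. It was -0.38 without S9CC13_R6 and -0.23 without S9CC47_R6, neither of them called. The call was also lost without the surrogate variable (-0.35) and without covariates (-0.35). In total reads TRIB2 fell at 3h (-0.41, SE 0.0764) and at 24h (-0.25, SE 0.0794), and FBXW7 fell at 24h (-0.24, SE 0.0881). That is 1 of 6 genes called at 3h and 2 of 6 at 24h, where 1.89% and 15.0% of all genes were. The median of the turnover list in T>C reads at 24h was -0.14.

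Of 16 tested genes of gp130 and STAT3 signalling, the pathway of IL-6 family cytokines, 0 were called in T>C reads at either time. Of all genes, 1.79% were called at 3h and 4.98% at 24h, so that 0 of 16 is near these shares. STAT3 itself had a log2 fold change of 0.55 (SE 0.182, adjusted p = 0.135) at 3h and of 0.21 (SE 0.192) at 24h, and its feedback target SOCS3 had -0.32 (SE 0.241) and -0.49 (SE 0.250). In total reads at 24h, where 15.0% of all genes were called, 2 of 15 were called, a share near that of all genes. These were the receptor gene LIFR (0.50, SE 0.185) and the kinase gene PIM1 (0.87, SE 0.354), both higher. The median of the list in T>C reads was 0.26 (3h) and 0.21 (24h), as log2 fold changes. Of 8 tested genes of fat cell formation, 0 were called in T>C reads at 3h (1.79% of all genes) or 24h (4.98%). This is near these shares, and the median was 0.18 at each time. In total reads 1 of 8 was called at 3h, EBF2 (1.14, SE 0.350), where 1.89% of all genes were. At 24h 2 of 8 were called, EBF1 (-0.37, SE 0.140) and LPL (-1.30, SE 0.434), where 15.0% of all genes were.

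Of 11 tested genes known to respond to glucocorticoids, 0 were called in T>C reads at 3h, where 1.79% of all genes were. At 24h 3 rose and 0 fell, where 2.38% of all genes were called higher and 2.59% lower. CRISPLD2, which encodes a secreted protein, had 1.73 (SE 0.291, adjusted p = 4.12e-07), FKBP5, a co-chaperone of the receptor, 0.51 (SE 0.168, adjusted p = 0.0608) and TSC22D3, also called GILZ, 0.42 (SE 0.131, adjusted p = 0.0412 by DESeq2). The receptor gene NR3C1 had 0.24 (SE 0.149, adjusted p = 0.524). The median of the list was 0.04 at 3h and 0.24 at 24h. The calls of FKBP5 and TSC22D3 were lost without any 1 of the cultures, with values of 0.42 to 0.55 and 0.27 to 0.53, and that of CRISPLD2 was lost without S9CC13_R6 (1.53) or S9CC47_R6 (1.65). Of 16 acute-phase and inflammatory genes, 4 had enough T>C reads to test, of which 1 was called higher at 3h (1.01% of all genes) and 2 at 24h (2.38%). PTGS2, which encodes an enzyme of prostaglandin synthesis, rose at both times by DESeq2, with 0.64 (SE 0.153) and adjusted p = 0.00333 at 3h and 1.08 (SE 0.156) and adjusted p = 1.47e-09 at 24h. The chemokine gene CCL2 rose at 24h (1.22, SE 0.266, adjusted p = 0.000353 by DESeq2). The call of PTGS2 at 24h was lost without S9CC13_R6 (1.10), and its call at 3h and that of CCL2 were lost without any 1 of the cultures, with values of 0.34 to 0.66 and 1.01 to 1.27. The median of these 4 genes at 24h was 0.75. In total reads at 24h, where 15.0% of all genes were called, 3 of 11 glucocorticoid genes were called, all higher. These were CRISPLD2 (1.70, SE 0.224), FKBP5 (0.28, SE 0.103) and DUSP1 (0.70, SE 0.288), while TSC22D3 was not called (0.29, SE 0.213). Of the 4 inflammatory genes, PTGS2 and CCL2 were also called higher in total reads at 24h.

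**Figure D5:**
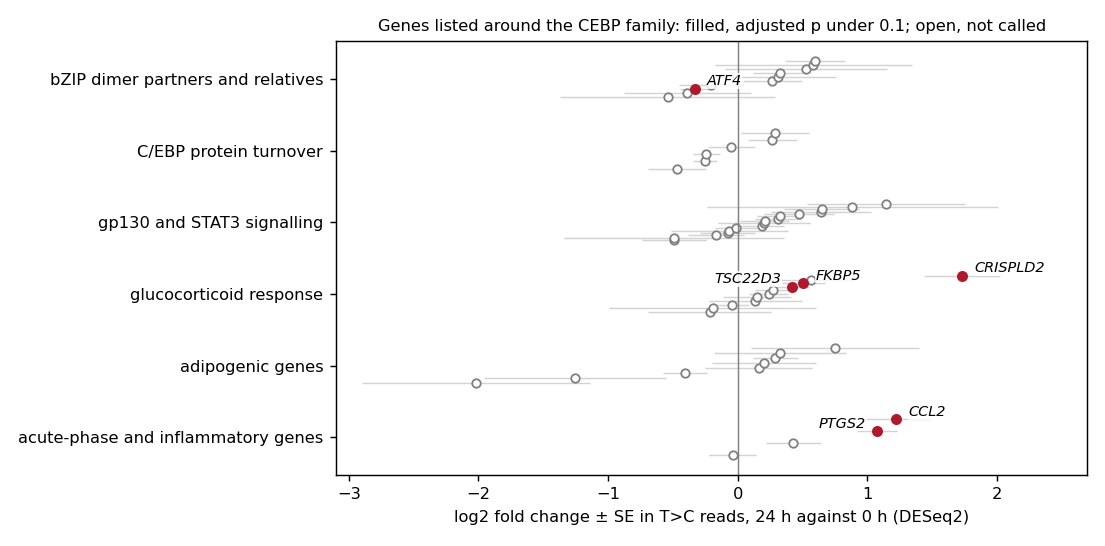
Log2 fold change of T>C reads at 24 h against 0 h (horizontal axis, DESeq2, bars ± SE) of the tested genes in the 6 lists around the CEBP family (rows), filled where the adjusted p was under 0.1. The 6 filled genes are CRISPLD2, CCL2, PTGS2, FKBP5 and TSC22D3 above 0 and ATF4 below.

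Some markers of cell state moved over the same times. The tag acts on the SOX9 protein, so that SOX9 RNA does not check the depletion. In T>C reads at 24h, 5 of 9 tested neural crest markers rose (2.38% of all genes were called higher). Among them were SOX9 (1.15, SE 0.0843), TFAP2A (0.67, SE 0.103) and TWIST1 (0.44, SE 0.102). Of 4 cartilage markers 2 were tested, and both fell (2.59% of all genes were called lower). These were COL2A1 (-1.10, SE 0.134) and COL9A1 (-1.07, SE 0.327). The summed level of the 10 neural crest markers was 3223 to 3295 CPM at 0h and 4405 to 4861 CPM at 24h. SOX9 itself had the highest median level in this sum (1415 CPM) and rose by 1.15 (SE 0.0831) in total reads at 24h. NR2F1, the next (1038 CPM), had -0.02 (SE 0.0730). NR2F1, SNAI2, ALX4 and TFAP2B were not called there, while 5 of 9 markers were called higher, where 15.0% of all genes were called. The summed level of the 4 cartilage markers was 340 to 372 CPM at 0h and 172 to 225 CPM at 24h. ACAN had 0 to 22 reads in a library and MATN1 2 to 13. The sum was thus nearly all COL2A1 (median 278 CPM) and COL9A1 (33 CPM). At 3h, 2 of 9 neural crest markers were called higher in T>C reads (1.01% of all genes). These were SOX9 (0.77, SE 0.0809) and TFAP2A (0.32, SE 0.0987). The 3h call of SOX9 was lost without S9CC47_R6 (0.88) and that of TFAP2A in 8 of 12 alternatives. In total reads at 3h, where 1.89% of all genes were called, SOX9 and TFAP2A were called higher and SNAI2 lower (-0.50, SE 0.160). In T>C reads LIN28A fell at 3h (-0.53, SE 0.0883) and at 24h (-0.35, SE 0.0914). DPPA4, the other tested pluripotency marker, was not called (-0.001, SE 0.181, and 0.11, SE 0.187). The 24h calls of SOX9, TFAP2A and COL2A1 stood without each of the cultures. Those of COL9A1 and LIN28A were lost without any 1 culture, with values of -1.31 to -0.81 and -0.38 to -0.29. So were those of TFAP2B (0.24 to 0.28) and ALX1 (0.32 to 0.45). The ALX1 call was lost in 8 of 12 alternatives. Among these were also the fits without covariates (0.41), with size factors from total reads (0.36) and under both other filters on low counts (0.36 and 0.35). TWIST1 was not called without S9CC13_R6 (0.39) or S9CC47_R6 (0.36), nor LIN28A at 3h without S9CC47_R6 (-0.42). The part of these shifts in the CEBPD values was not tested.

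The genes whose normalized T>C reads were most like those of CEBPD over the 9 libraries were TSHZ3, SOX9, TNFRSF11B, CCN3 and MN1, with Pearson's r of 0.952 to 0.959 among 8675 genes compared. They encode a zinc finger factor, the depleted factor itself, the decoy receptor osteoprotegerin, a matrix-associated protein and a transcriptional coregulator. Their log2 fold changes at 24h were 0.51 to 1.77. The order depends on the measure. With the mean of each culture taken off, these genes stood, in the order named, in places 25, 19, 11, 4 and 42. CEBPB was in place 161 with r = 0.806, and CEBPG in place 1715 with r = 0.444. The genes most like CEBPB were NAB2, H3F3B, ARNT, MID1IP1 and ZBTB34 (r = 0.941 to 0.954). With culture means taken off, they stood in places 22, 57, 80, 7 and 42. All points share the 9 libraries and the 3 times, and the correlations are descriptions.

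The members lie on 4 chromosomes (hg38, GENCODE 44). CEBPD is at chromosome 8 from 47736913 to 47738164 on the minus strand and has 1 exon, as have CEBPA (chromosome 19 from 33299934 to 33302534, minus strand) and CEBPB (chromosome 20 from 50190830 to 50192668, plus strand). CEBPG (chromosome 19 from 33373685 to 33382686, plus strand) and CEBPE (chromosome 14 from 23117036 to 23120256, minus strand) were annotated with 2 exons. CEBPA and CEBPG are 71150 bases apart. The nearest tested neighbours of CEBPD are SPIDR, 606 bases away, with a log2 fold change of T>C reads of 0.14 (SE 0.272, adjusted p = 0.903) at 24h, and PRKDC, 34946 bases away, with 0.01 (SE 0.130, adjusted p = 0.991 by DESeq2). None of the 8 neighbours outside the family was called in T>C reads at 3h (1.79% of all genes) or 24h (4.98%), which is near these shares. The value farthest from 0 was that of SLC7A8 beside CEBPE at 24h (2.03, SE 0.845, adjusted p = 0.205 by DESeq2).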

How the data were processed

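SLAM-seq libraries of 9 samples were analysed. According to the authors' methods, slamdunk mapped and counted read 1 after adapters and poly(A) stretches had been trimmed, and the labels name hg38. The authors deposited raw counts per gene symbol, 1 table of all reads and 1 of T>C reads, each with 9 columns, and these counts were used as they stood. DESeq2 (1.42.0, R 4.3.3) fitted all samples with time, differentiation batch and 1 surrogate variable (svaseq, sva 3.50.0), without independent filtering. Protein-coding genes entered when 3 or more samples reached 1 CPM (12037 genes for T>C reads, 11710 for total reads). A call needed a p-value under 0.1 after Benjamini-Hochberg adjustment over all genes tested. Normalized reads are counts divided by size factors. The T>C share was tested on T>C and unconverted reads in 1 fit with the library as a block. The members and lists were chosen with earlier results of these data known. Named list genes were the called ones whose normalized T>C reads averaged 50 or more, at most 4 per list, with the nearest tested neighbours and the 5 most alike genes; genes given for their role or called in total reads were added after their values were seen. The scripts were tested on simulated data. Alternatives were edgeR (4.0.16), TMM factors, other covariates, filters and size factors, and leaving out cultures. Samples of 1 culture share line and differentiation batch, as their titles show, so that the culture pairs them across times; the mean correlation of their deviations from the group means was 0.131 (0.0169 to 0.286) in T>C reads. Cultures differ in clone or differentiation batch. Batch R5 held only S9CC47_R5, so that the batch term took up the mean difference of this culture from the others. The p-values for reads measure the scatter left among the 9 samples after time, batch and the surrogate variable. The estimate of this scatter is shared in part across genes. The p-values hold for these 3 cultures only.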

Additional observations from a re-analysis of the deposited data

Results flagged for a closer look

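For 24h against 3h in T>C reads, 2 genes of the lists around the family were called, where 1.14% of all genes were. These were 1 of 11 tested glucocorticoid genes and 1 of 4 tested inflammatory genes, with none in the other lists. CRISPLD2 lay 1.61 higher at 24h than at 3h on the log2 scale (SE 0.316, adjusted p = 0.000132 by DESeq2), and CCL2 lay 1.32 higher (SE 0.285, adjusted p = 0.00105 by DESeq2). Both calls were lost without any 1 of the cultures, with values of 1.29 to 1.90 and 1.05 to 2.45. Of the markers of cell state, 2 of 9 tested neural crest markers were called higher at 24h than at 3h. These were SOX9 (0.38, SE 0.0907, adjusted p = 0.00625 by DESeq2) and TWIST1 (0.44, SE 0.110, adjusted p = 0.0137 by DESeq2). COL2A1, 1 of 2 tested cartilage markers, was called lower (-0.75, SE 0.145, adjusted p = 8.99e-05 by DESeq2). These marker contrasts were not run under the alternatives.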

How the results depend on the processing

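No alternative changed the count of 0 paralogues called in any of the 10 comparisons. Only 2 or 3 paralogues were tested in each, and some fits called few genes at all (2 for the T>C share at 24h). A steady count of 0 therefore says little. CEBPD kept its direction in all 91 alternative values. It was picked by its rise in these same libraries, so that these values describe the rise and give it no further support. The replicate block, which pairs samples by culture, called 0 paralogues as well. Signs of uncalled paralogues close to 0 did turn. In T>C reads at 3h CEBPA was 0.056 without covariates and CEBPG 0.00269 with a mean of at least 20 counts. In total reads at 3h CEBPA was 0.089 with the replicate block, 0.066 without the surrogate variable, 0.11 without covariates and 0.00552 with genes of at least 1 count, and CEBPG was -0.058, -0.051 and -0.045 in the first 3 of these. At 24h CEBPA in total reads was -0.00964, -0.033 and -0.00829 in the same 3. Leaving out S9CC13_R6 at 3h, lowest of the libraries in T>C share (chosen after seeing the data), gave CEBPA 0.11 in T>C reads at 24h and 0.17 in total reads at 3h, and CEBPG -0.12 and -0.22 in total reads at 3h and 24h. Relative to the library's median share, the CEBPB share at 3h changed by a mean log2 ratio of 0.11 within cultures in place of -0.03.

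Leaving out each culture gave, in T>C reads at 3h, -0.39 to 0.18 for CEBPA, 0.023 to 0.37 for CEBPB and -0.34 to 0.076 for CEBPG. At 24h it gave -0.17 to 0.32 for CEBPA, 0.20 to 0.73 for CEBPB, -0.13 to 0.27 for CEBPG and -0.49 to 0.039 for ATF4. In total reads it gave -0.15 to 0.30 for CEBPB and -0.45 to 0.15 for CEBPG at 3h, and -0.011 to 0.58 and -0.38 to 0.19 at 24h. CEBPA passed the filter there only without S9CC13_R6 (0.036 at 3h, 0.79 at 24h). In T>C share it gave -0.21 to 0.023 for CEBPG at 3h and -0.027 to 0.38 for CEBPB at 24h. CEBPD in T>C reads, by which it was picked, gave values of 0.92 to 1.13 at 3h and 1.95 to 2.52 at 24h.

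Counts over all genes moved by over 1.5 times in some fits. T>C reads gave 216 at 3h (134 without covariates), 599 at 24h (968 by edgeR) and 137 for 24h against 3h (267 by edgeR, 530 with the replicate block, 373 without the surrogate variable, 384 without covariates). Total reads gave 221 at 3h (141, 118 and 103 in the last 3 of these) and 631 for 24h against 3h (1544 with the block), unconverted reads 127 at 3h (70 and 60 without the surrogate variable and without covariates) and the T>C share 2 at 24h (4 with the block). Without S9CC13_R6 at 3h, T>C reads gave 132 and 306 at 3h and 24h, total reads 126, 424 and 303 in the 3 comparisons, unconverted reads 56 and 334 and the T>C share 25 at 3h in place of 39. With a culture left out, T>C reads gave 5 to 91 at 3h, 54 to 251 at 24h and 4 to 30 for 24h against 3h. Total reads gave 12 to 152, 56 to 719 in place of 1751 and 93 to 191, unconverted reads 28 to 128 and 131 to 542 in place of 1396, and the T>C share 7 to 31 and 0 to 3. Of 252 alternative values of called list and marker genes, 185 kept direction and call, 66 lost the call and 1 turned. Under the replicate block TRIB2 (-0.36) and TFAP2A (0.26) lost their calls at 3h. List genes called in total reads were not run under the alternatives. With 3 samples a group and under 25 T>C reads of CEBPA in each library, changes of CEBPA below its interval could not be seen.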
